A study of Mus musculus with 4 samples.

Results

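Pax6-only peaks are the places where tagged Pax6 was called in the genome of mouse neural progenitor-like cells and no peak was called in the other FLAG libraries of the study. The members were chosen by the deposited peak lists of chromatin immunoprecipitation with sequencing (ChIP-seq). A Pax6 peak on chromosomes 1 to 19 was a member if it overlapped no Etv6 peak and no EGFP_OK peak by 1 bp or more. There were 3847 such peaks among the 16233 Pax6 peaks of these chromosomes, which is 23.7% (95% interval 23.05 to 24.4). This share is fixed by the rule and is given as a description.

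The study held 4 libraries, each of a different target, in a series on direct conversion of cell identity and factors that hinder dedifferentiation. The Pax6 and Etv6 libraries, whose titles name NS, were made by pulling down the FLAG tag with antibody M2. The EGFP_OK library was made with that same antibody, and its title names N31 and EGFP but no tagged factor. The H3K4me2 library, which reads dimethylated lysine 4 of histone H3, has a title that names N31, Oct4, EGFP and 0 hr. The cells of all libraries were labelled as 129/SvJ neural progenitor-like cells made from embryonic stem cells, used at passage 15 to 18 and grown with EGF and FGF-2. The sources used here do not state how the tagged proteins were expressed, nor whether NS and N31 name the same line, so a difference between the lines cannot be told apart from a difference between the targets. No library labelled as input or as an untagged control was used here. With 1 library per target, no value has a replicate error, intervals cover counting error only, and no p-value is given.

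Pax6 is a transcription factor with a paired domain and a homeodomain, and it is known for its role in the eye, the forebrain and neural progenitors, where it both activates and represses genes. Etv6 belongs to the ETS family, whose members bind DNA through the ETS domain, and is known mainly as a repressor. H3K4me2 marks nucleosomes at promoters and enhancers that are active or poised, so a summit inside an H3K4me2 peak lies in chromatin of that kind, and a summit outside lies where no such mark was called.

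The Pax6-only peaks were small. A member held a median of 14 tags (quartiles 11 and 18, range 10 to 177), where a tag is 1 sequenced fragment end kept after removal of duplicates. The Pax6 peaks that had an Etv6 peak held a median of 21 tags (quartiles 15 and 32). Those that had only an EGFP_OK peak were closest to the members, with a median of 15 tags. The lowest tag counts of the list, 10 to 12, were found in 1463 members, or 38.03%, and in 11.5% of the Pax6 peaks with an Etv6 peak. Members were also narrower, at a median of 817 bp, while the Pax6 peaks with an Etv6 peak spanned 1044 bp. The deposited fold enrichment, the height of the summit over the background of the surrounding 10 kb, did not follow the tags. Its median was 10.4 in the members and 10.6 in the Pax6 peaks with an Etv6 peak.

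Score separated the classes more than fold enrichment did. The score is the authors' p-value for a peak, as −log10 multiplied by 10. The Pax6 list was divided by score into 10 bands of nearly equal number. Members made up 2.46% (1.77 to 3.34) of the highest band and 42.1% (39.6 to 44.5) of the lowest, with a lower share in each band than in the one beneath it. A score of at least 100 was reached by 256 members, or 6.65%, and by 32.3% of the Pax6 peaks with an Etv6 peak. Ranked by fold enrichment the members were spread more evenly, at 14.1% of the highest band and 20.7% of the lowest, with up to 29.7% in between. The Pax6 library kept 5288154 of 27560633 tags after removal of duplicates, and the Etv6 library kept 24071748, so members were called in a library with 0.220 times the kept tags of the one in which they lacked a peak. Whether Etv6 tags below the calling limit lay at these places was not tested, since the files list called peaks alone.

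**Figure D1:**
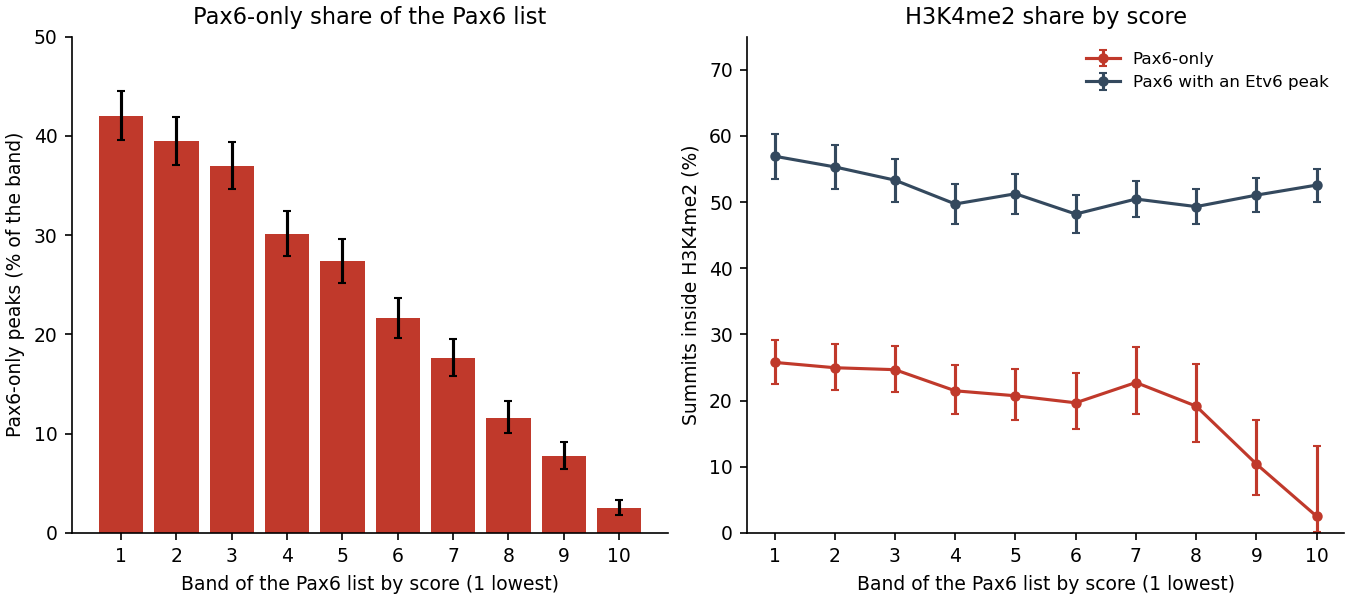
Left, the share of Pax6-only peaks in each of 10 bands of the Pax6 list by score (1 lowest). Right, the share of summits inside an H3K4me2 peak in the same bands, for Pax6-only peaks and for Pax6 peaks with an Etv6 peak; whiskers are exact 95% intervals. Members fall to 2.46% of the highest band, and their H3K4me2 share falls to 2.50% there, while that of the Pax6 peaks with an Etv6 peak stays between 48.2% and 56.9%.

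Near the overlap limit of the rule, 1 bp, there were few peaks on either side. Only 13 members had an Etv6 peak within 100 bp, with a median of 16 tags, and 14 Pax6 peaks overlapped an Etv6 peak by no more than 100 bp, with a median of 15.5 tags. Where Pax6 and Etv6 peaks did overlap, the median overlap was 963 bp. An EGFP_OK peak lay within 100 bp of 13 members, and 13 of the Pax6 peaks with EGFP_OK only overlapped it by 100 bp or less. The remaining 3834 members lay over 100 bp from the nearest Etv6 peak. Membership also depends on the score limit of the other lists. With Etv6 and EGFP_OK scores of at least 100 there were 7395 members in place of 3847.

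Summits of Pax6-only peaks were less often in H3K4me2 chromatin than those of any other class of Pax6 peaks. Of the members, 865 had the summit inside an H3K4me2 peak and 2982 outside, a share of 22.5% (21.2 to 23.8). Over the whole Pax6 list the share was 44.3%. The Pax6 peaks with Etv6 only had 45.0% (44.02 to 46.1), those with EGFP_OK only had 41.5% (37.4 to 45.7) and those with both had 73.1% (71.4 to 74.7). The share in the members was lower by 29.0 percentage points than in all Pax6 peaks with an Etv6 peak (Pax6-only minus shared -29.0, 95% interval -30.6 to -27.4). Against the Pax6 peaks with EGFP_OK only, which were alike in tag count, the difference was -19.0 points (-23.3 to -14.8).

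The lower share was found in each class of tag count. Among peaks of 10 to 14 tags, 22.6% of the members (20.9 to 24.5) and 52.3% of the Pax6 peaks with an Etv6 peak (50.3 to 54.3) were marked. At 15 to 19 tags the shares were 22.1% in members and 48.2% in shared peaks, and at 20 or more tags 22.5% in members and 52.5% in shared peaks. The differences were -29.6 points (-32.2 to -27.0), -26.1 points (-29.2 to -22.7) and -30.0 points (-33.1 to -26.7) from the lowest to the highest class of tag count. The rule acts on this share too, because 36.03% of all H3K4me2 peaks overlapped an Etv6 peak, so that taking away peaks with Etv6 takes away marked places; how much of the difference comes from this was not tested. The Etv6 peaks in no other FLAG list gave 48.1% (47.3 to 48.9) and the EGFP_OK peaks in no other FLAG list 14.2% (13.7 to 14.6). Members thus differed from both, by -25.6 points (-27.1 to -24.1) from Etv6-only peaks and by 8.33 points (6.95 to 9.75) from EGFP_OK-only peaks. These lists were called at unlike depth, with 5288154 kept tags for Pax6, 24071748 for Etv6 and 21498324 for EGFP_OK. The smallest peaks held 10 tags for Pax6, 18 for Etv6 and 19 for EGFP_OK. The part of depth in these 2 differences was not tested. The mark was read in cells labelled N31, while Pax6 was read in cells labelled NS.

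**Figure D2:**
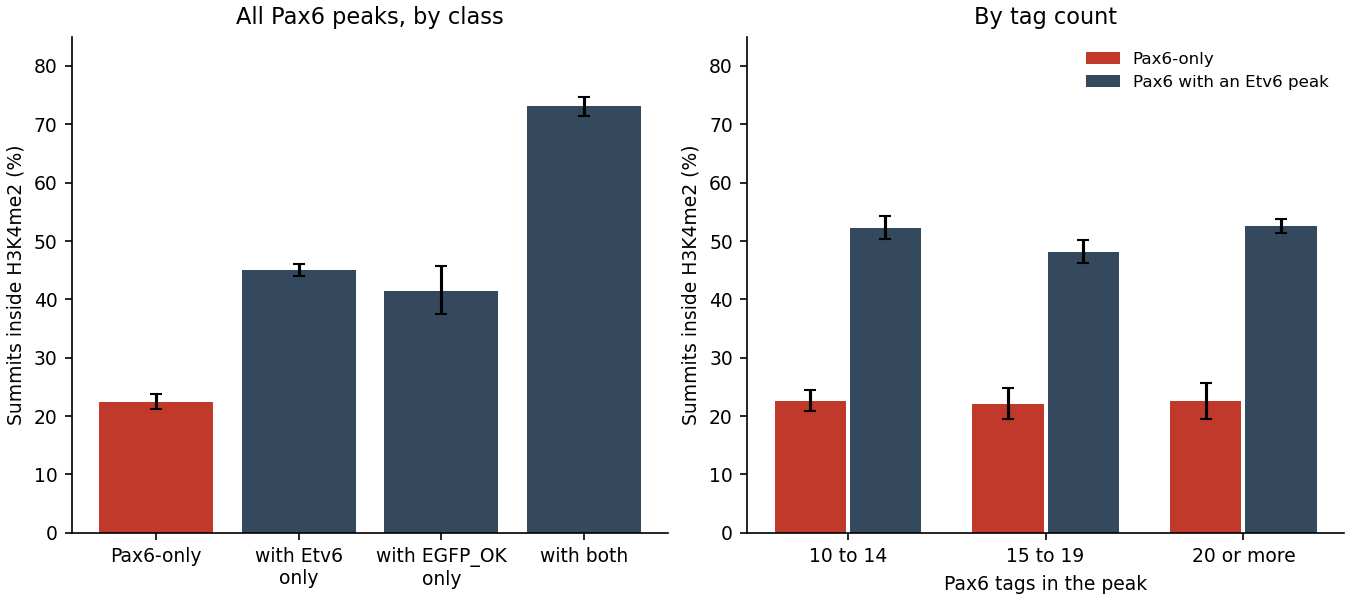
Share of Pax6 summits inside an H3K4me2 peak, by class of Pax6 peak (left) and by tag count for Pax6-only peaks and Pax6 peaks with an Etv6 peak (right); whiskers are exact 95% intervals. Pax6-only peaks stay near 22.5% in each class of tag count, against 48.2% to 52.5% for the peaks with Etv6.

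The highest-scoring members were nearly all unmarked. In the highest band of the Pax6 list by score, 1 of 40 members lay in H3K4me2, or 2.50% (0.0633 to 13.2), against 176 of 683, or 25.8% (22.5 to 29.2), in the lowest band. The difference, highest minus lowest, was -23.3 points (-27.3 to -12.4). The Pax6 peaks with an Etv6 peak were marked in 52.6% of cases in the highest band and in 56.9% in the lowest, a difference of -4.37 points (-8.48 to -0.209). The Pax6 peaks with EGFP_OK only were few in the highest band, where 1 of 10 was marked, or 10.0% (0.253 to 44.5), against 38.5% (28.4 to 49.2) in the lowest. By fold enrichment the marked share of members was 13.1% in the highest band, against 30.7% in the lowest, a difference of -17.6 points (-23.9 to -10.7). For the Pax6 peaks with an Etv6 peak that difference was -15.9 points (-19.7 to -12.1). Those with EGFP_OK only were marked in 20.8% of the highest and 55.9% of the lowest band, with 32.7% to 49.2% in between in no steady order. The highest band by fold enrichment was thus below the lowest in all of these classes. A fold enrichment of at least 20 was reached by 21 members, or 0.546%. Of these 21, 1 was marked, and they held a median of 22 tags. That level was reached by 164 Pax6 peaks with an Etv6 peak, or 1.39%, of which 64 were marked.

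Marked and unmarked members were alike in their median size and differed in how many scored high. A score of at least 100 was reached by 28 members inside H3K4me2, or 3.24%, and by 228 outside, or 7.65%. Members inside H3K4me2 had a median of 14 tags, a median width of 830 bp and a median fold enrichment of 9.88. Members outside H3K4me2 had a median of 14 tags, a median width of 814 bp and a median fold enrichment of 10.6. They differed in their surroundings, with a median of 8 H3K4me2 peaks within 100 kb of a marked member, its own included, and 4 within 100 kb of an unmarked one. The median number of Etv6 peaks within 100 kb was 4 for both.

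The H3K4me2 peaks that held a Pax6-only summit were moderately wide. Each of the 865 marked members lay in an H3K4me2 peak of its own. These had a median width of 1907 bp (1845 to 2001) and 154 tags (140 to 165), against 2174 bp (2140 to 2211) and 160 tags (155 to 165) for those with a summit shared with Etv6 only, and 2759 bp and 262 tags for those with a summit shared by all FLAG lists. Over all H3K4me2 peaks the median was 1638 bp and 122 tags. An Etv6 peak touched 57 of the 865 host peaks elsewhere, or 6.59% (5.03 to 8.45), where 36.03% of all H3K4me2 peaks were touched by one. An EGFP_OK peak touched 32, or 3.70%, where 17.8% of all H3K4me2 peaks were touched by one, and 789 held neither. The rule keeps both off the member within the host peak, which lowers these counts, so they are given as a description. The rates were alike in the nearest classes. An EGFP_OK peak touched the host of 3.66% of the summits shared with Etv6 only. An Etv6 peak touched the host of 7.66% of the summits shared with EGFP_OK only. The Pax6-only summit lay a median of 331 bp (310 to 348) from the H3K4me2 summit, against 362 bp (354 to 371) for summits shared with Etv6 only, in host peaks that were wider. Within 100 bp of the H3K4me2 summit lay 12.9% of the members' summits and 8.03% of those shared with Etv6 only. The hosts of summits shared with EGFP_OK only were like those of the members, with a median width of 2017 bp, 155 tags, an offset of 353 bp (296 to 393) and 14.04% of summits within 100 bp.

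The 2982 unmarked members lay a median of 17.5 kb (16.2 to 18.8) from the nearest H3K4me2 peak. Unmarked Pax6 summits shared with Etv6 only lay 14.8 kb (14.01 to 15.6) away, and those shared with all FLAG lists 12.02 kb (10.6 to 13.8). Few unmarked members were at the edge of a mark. Within 1 kb lay 5.20% (4.43 to 6.06) of them, against 8.19% (7.44 to 8.98) of the unmarked summits shared with Etv6 only. At the other end 412 unmarked members, or 13.8%, were over 100 kb from any H3K4me2 peak, against 10.97% of the summits shared with Etv6 only.

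Although no Etv6 peak overlapped them, most Pax6-only peaks had an Etv6 peak within 50 kb. The gap from the edge of a member to the nearest Etv6 peak had a median of 16.8 kb (15.8 to 17.7), with quartiles of 6.87 and 42.3 kb. It was at most 1 kb in 158 members, or 4.11%, at most 5 kb in 18.1%, at most 10 kb in 1352, or 35.1% (33.6 to 36.7), and at most 50 kb in 78.9%. Over all Pax6 peaks that had no Etv6 peak, most of which are members, 34.8% had one within 10 kb, so the members were near that level. These distances depend on the score limit of the other lists: with Etv6 and EGFP_OK scores of at least 100 there were 7395 members, the median gap was 33.4 kb and 19.4% had an Etv6 peak within 10 kb. At the far end 427 members, or 11.1%, were over 100 kb from any Etv6 peak, against 12.9% of the Pax6 peaks with EGFP_OK only. Over 500 kb away were 96 members, and the largest gap was 2.26 Mb. The Pax6 peaks with EGFP_OK only had a median gap to Etv6 of 18.98 kb (16.8 to 22.1), an interval that overlaps that of the members. Of these peaks 32.5% had an Etv6 peak within 10 kb. The difference, members minus these peaks, was 2.64 points (-1.60 to 6.66), so the members were not set apart from them. EGFP_OK peaks in no other FLAG list lay farther from Etv6, with a median gap of 26.7 kb (26.0 to 27.6) and 27.3% within 10 kb. The nearest EGFP_OK peak lay a median of 23.8 kb (22.3 to 25.1) from a member, at 20.6 kb (18.4 to 22.96) for members inside H3K4me2 and 24.9 kb (23.2 to 26.3) for members outside.

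Marked and unmarked members differed in their gaps to Etv6 at some distances and not in the median. The median gap to Etv6 was 17.2 kb (15.8 to 18.7) for members inside H3K4me2 and 16.4 kb (15.4 to 17.8) for members outside, and these intervals overlap. An Etv6 peak within 10 kb was found for 33.6% of the members inside and 35.6% of those outside, a difference of -1.94 points (-5.47 to 1.70). Within 1 kb it was found for 7.05% inside and 3.25% outside, a difference of 3.80 points (2.12 to 5.79). Beyond 100 kb lay 7.40% of the members inside and 12.2% of those outside, a difference of -4.77 points (-6.76 to -2.53). Within 50 kb it was found for 82.5% (79.8 to 85.02) inside and 77.8% (76.3 to 79.3) outside, intervals that do not overlap. Read the other way, the marked share was 38.6% (30.98 to 46.7) of the 158 members within 1 kb of an Etv6 peak, 19.1% (15.9 to 22.7) at over 1 to 5 kb and 19.4% (16.4 to 22.6) at over 5 to 10 kb. It was 25.1% (23.1 to 27.3) at over 10 to 50 kb, 22.6% (18.5 to 27.1) at over 50 to 100 kb and 15.0% (11.7 to 18.7) beyond 100 kb. The share therefore had no single direction with distance.

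**Figure D3:**
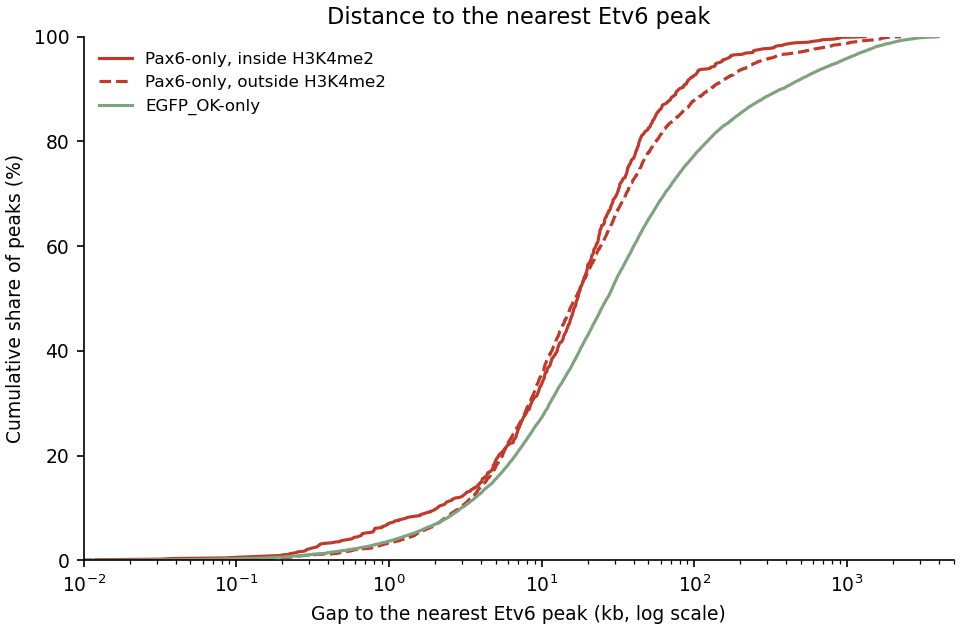
Cumulative share of peaks (%) against the gap to the nearest Etv6 peak in kb on a log scale, for Pax6-only peaks inside and outside H3K4me2 and for EGFP_OK-only peaks. The curves of the members lie close together around their medians of 17.2 kb and 16.4 kb; at 1 kb they stand at 7.05% inside and 3.25% outside and at 50 kb at 82.5% inside and 77.8% outside; EGFP_OK-only peaks are shifted to longer gaps, with a median of 26.7 kb.

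Members lay between the other classes in their distance to other Pax6 peaks. The nearest other Pax6 peak of any class lay a median of 30.5 kb from a member, 22.6 kb from a Pax6 peak with an Etv6 peak and 35.9 kb from one with EGFP_OK only. For 26.7% of the members that neighbour was another Pax6-only peak, against 21.3% of the Pax6 peaks with an Etv6 peak and 26.3% of those with EGFP_OK only. Few members lacked a Pax6 neighbour at a scale of 100 kb. No other Pax6 peak lay within 100 kb of 18.9% of the members. The same held for 12.1% of the Pax6 peaks with an Etv6 peak and 19.96% of those with EGFP_OK only. Counting members alone, on a fixed grid of 100-kb windows, most were the only member of their window. That count was not made for the other classes. Of the 3368 windows of 100 kb that held any member, 2943 held 1, 377 held 2, 42 held 3 and 6 held 4. Of these 6 windows, the 3 whose members reached the highest fold enrichment are described. The window on chromosome 14 (17500001 to 17600000) held 4 Pax6 peaks, all of them members and unmarked, with 12 to 18 tags, beside 3 Etv6 and 4 EGFP_OK peaks and no H3K4me2 peak. The window on chromosome 16 (86300001 to 86400000) held members of 14 to 29 tags, 1 of them marked, among 5 Pax6 peaks. The window on chromosome 19 (55400001 to 55500000) held unmarked members of 12 to 16 tags, with 1 Etv6 peak.

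Chromosomes differed in how much of their Pax6 list was Pax6-only. The share was highest on chromosome 14, at 35.5% (31.2 to 40.0) of 479 Pax6 peaks, and next on chromosome 5, at 31.5% (28.0 to 35.1). It was lowest on chromosome 11, at 19.5% (17.0 to 22.3). Chromosome 14 also had the fewest Etv6 peaks for its Pax6 peaks, 1.62 per Pax6 peak, and chromosome 11 the most, 2.33, with a median of 1.87 over the 19 chromosomes. EGFP_OK peaks, which the rule also uses, went the other way, with 2.61 per Pax6 peak on chromosome 14 and a median of 1.72. The median gap from a member to Etv6 was 45.9 kb on chromosome 14, and it was 12.01 to 26.7 kb on the others. Of the 427 members over 100 kb from Etv6, 59 were on chromosome 14, which held 170 of the 3847 members. On chromosome 5 the number of Etv6 peaks per Pax6 peak was 1.89, close to the median. The Etv6 and EGFP_OK lists are inputs of the rule, so these values are a description. The cause of the differences in the Pax6-only share between chromosomes was not tested. The lower H3K4me2 share of members was found on all 19 chromosomes, with a difference from the Pax6 peaks with an Etv6 peak of between -39.2 points on chromosome 19 and -17.7 points on chromosome 16. The whole interval was below 0 on each. The marked share of members was highest on chromosome 7, at 34.9% (27.2 to 43.3), and lowest on chromosome 8, at 15.3% (10.4 to 21.3).

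**Figure D4:**
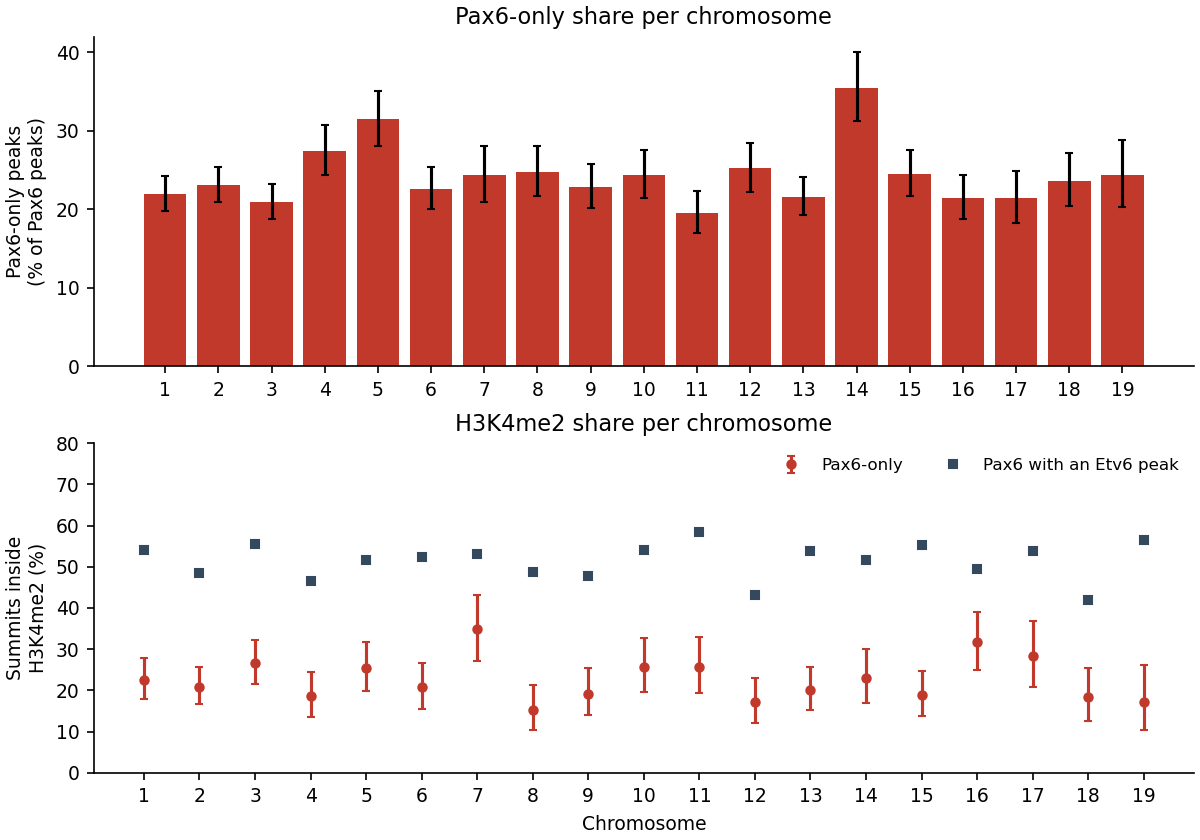
Top, Pax6-only peaks as a percentage of the Pax6 peaks of each chromosome. Bottom, the percentage of summits inside H3K4me2 for Pax6-only peaks and for Pax6 peaks with an Etv6 peak; whiskers are exact 95% intervals and are drawn for Pax6-only values. Chromosome 14 stands highest in the top panel at 35.5%, and in the bottom panel the Pax6-only value is below the other on all 19 chromosomes.

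The members with the highest scores are given by position in build mm9; no gene is assigned, because the gene table at hand is of another build. Outside H3K4me2 the highest lay at chr13:102630234-102631205, with 56 tags, a score of 308.31 and 20.2-fold enrichment. Its nearest Etv6 peak was 5265 bp away and held 62 tags, and the nearest H3K4me2 peak was 5391 bp from its summit. The next, at chr15:61004572-61006804, was wider, with 144 tags but 8.72-fold enrichment, and lay 13.8 kb from Etv6. The third, at chr10:86307982-86308766, held 33 tags at 24.9-fold in 785 bp. It had no other Pax6 peak within 100 kb, and its nearest Etv6 peak was 33.8 kb away. The other two were at chr15:61060753-61062297 (71 tags, 11.1-fold, 5406 bp from Etv6) and at chr13:10724238-10725581 (53 tags, 11.1-fold, 28.1 kb from Etv6). In the Pax6 list these 5 ranked between 106 and 524 by score.

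Inside H3K4me2 the 5 highest-scoring members, of 865, had lower scores and fewer tags than the 5 outside, of 2982. Their fold enrichments were not lower throughout, at 10.8 to 22.4, against 8.72 to 24.9 for the 5 outside. The first, at chr2:152993679-152994592, held 26 tags at 16.5-fold, ranked 1082 in the Pax6 list and lay in an H3K4me2 peak of 1543 bp with 82 tags. The second, at chr5:104844744-104845792, held 26 tags at 16.7-fold and sat in a crowded stretch, with 10 Etv6 and 9 other Pax6 peaks within 100 kb. The third, at chr11:16426114-16427059, held 32 tags at 10.8-fold, with its summit 75 bp from the H3K4me2 summit and an Etv6 peak 1995 bp away. The fourth, at chr14:93493770-93494792, held 22 tags at 16.2-fold. No Etv6 peak lay within 100 kb of it, while an EGFP_OK peak was 192 bp from its edge. The fifth, at chr7:132536822-132537952, had the highest fold enrichment of the marked members, 22.4, with 22 tags and a summit 14 bp from that of a small H3K4me2 peak of 26 tags.

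The members of a score of at least 100 that lay farthest from Etv6 were all on chromosome 6. The farthest, at chr6:69318274-69319256, held 23 tags at 15.3-fold and lay 1356 kb from the nearest Etv6 peak, with no peak of the other 3 lists within 1 Mb. The next, at chr6:61955469-61955954, held 17 tags at 16.7-fold and was 1194 kb from Etv6, yet an EGFP_OK peak was 7.33 kb away and an H3K4me2 peak 7.99 kb. The last, at chr6:44742752-44743392, held 22 tags at 13.7-fold, 1126 kb from Etv6 and 1125 kb from H3K4me2.

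The 3 members with the most tags, of which the one on chromosome 15 is given above, were wide, with a fold enrichment below the members' median of 10.4. The peak at chr8:19852949-19858823 held 177 tags over 5875 bp at 9.96-fold, and a second on the same chromosome, at chr8:19705687-19708535, held 127 tags over 2849 bp at 5.58-fold. The wider one covered an H3K4me2 peak of 128 tags, although its own summit lay 3784 bp outside that peak, so it counts as unmarked. The nearest Etv6 peaks lay 45.9 kb from the wider one, with 352 tags, and 18.2 kb from the other, with 487 tags. In all, 19 members, or 0.494%, held at least 50 tags. They had a median width of 1862 bp and a median fold enrichment of 8.26, and 4 of them were marked. They were not all alike, since the member at chr13:102630234-102631205 held its 56 tags in 972 bp at 20.2-fold. The 965 Pax6 peaks with an Etv6 peak at that tag count, 8.16% of that class, were also wide, at a median of 1709 bp. Their median fold enrichment was 10.99, and 588 of them were marked. Chromosome 15 had 5 of these 19, and chromosomes 3 and 8 had 3 each. Of all 3847 members, chromosome 15 held 218, chromosome 3 held 277 and chromosome 8 held 183.

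The stretch of chromosome 15 around chr15:61004572-61006804 was looked at in full after its values were seen. Within 400 kb on either side lay 27 Pax6 peaks, of which 9 were Pax6-only, 1 of them marked, with 27 to 144 tags, beside 25 Etv6, 21 EGFP_OK and 24 H3K4me2 peaks. The median Pax6 peak of the stretch held 63 tags against 19 in the whole list, and the median Etv6 peak 160 against 54. For EGFP_OK the medians were 80 in the stretch and 48 in the whole list, and for H3K4me2 they were 89.5 in the stretch and 122 in the whole list. The median of the stretch was 3.32 times that of the list for Pax6 and 2.96 times for Etv6, both from cells labelled NS. It was 1.67 times for EGFP_OK and 0.734 times for H3K4me2, both from cells labelled N31. Of the 5 unmarked members with the highest scores, 2 lie here, and the part of the raised tag counts in their scores was not tested. Fold enrichments, which are relative to the local background, were not raised, with a Pax6 median of 8.66 in the stretch and 10.6 in the list.

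**Figure D5:**
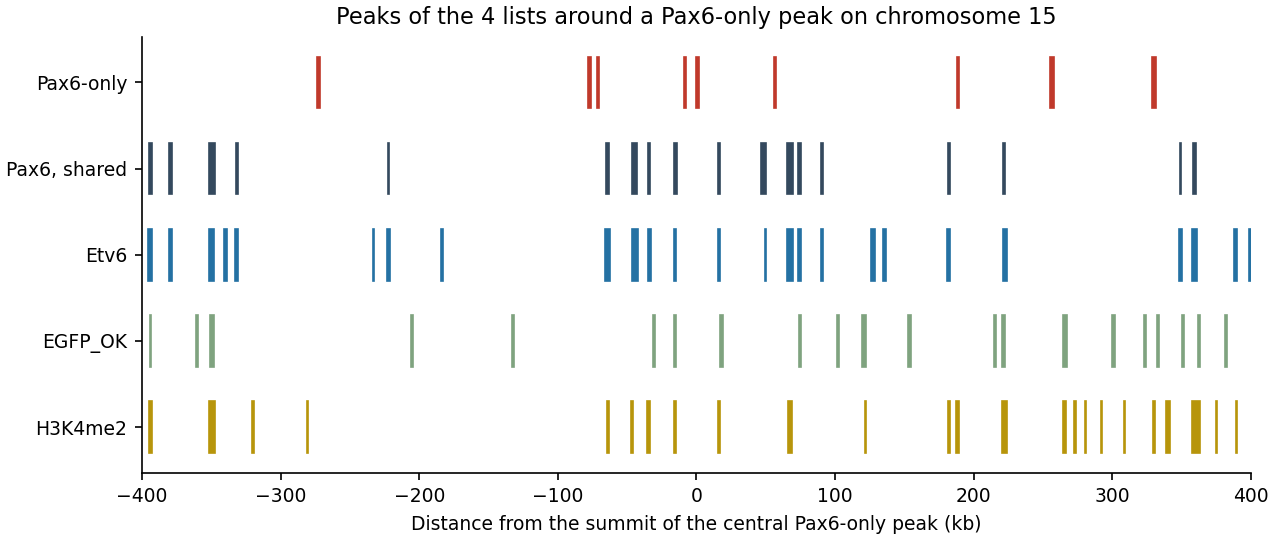
Peaks of the 4 lists around the Pax6-only peak at the centre, drawn to scale against distance from its summit in kb, with Pax6 peaks shown as Pax6-only or shared with another FLAG list. The 9 Pax6-only peaks lie among the 18 shared ones, which overlap Etv6 or EGFP_OK peaks.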

How the data were processed

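ChIP-seq peak lists of 4 libraries were used, 1 each for Pax6, Etv6, EGFP_OK and H3K4me2, grouped by their titles. Per the submitters' processing notes, the tools were MACS 1.4.2, BWA 0.6.2 and CASAVA 1.8.1, and the build was mm9. Per the file headers, MACS called peaks on each library alone, with no control, a p cutoff of 1e-05 and at most 1 tag per position; each peak was thus judged against its own library. Cells were fixed in 1% formaldehyde for 10 min and chromatin was sheared to 200 to 500 bp, per the labels. Kept tags numbered 5288154 (Pax6), 24071748 (Etv6), 21498324 (EGFP_OK) and 24550365 (H3K4me2), after duplicates amounting to 81%, 22%, 39% and 16% of tags had been set aside, per the headers. The deposited tag counts per peak are whole numbers without normalization. The deposited score is 10 times the −log10 of the p-value, and the deposited fold enrichment is a ratio to the local background; both are the authors' own and were used only within a list.

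Overlaps, gaps and shares were computed in Python 3.11.15 (pandas 2.3.3, numpy 2.4.6, scipy 1.17.1), and the code was tested on simulated peaks with planted overlaps. A summit is the peak's start plus its summit offset minus 1. Intervals are 95%: exact (Clopper-Pearson) for shares, Newcombe's for differences and order-statistic for medians. Counting error alone is covered, and peaks close together are not independent of each other. The members, lists and rules were chosen with earlier results of these data known. Regions named, with ties going to the higher fold and then the lower position, are the 5 highest-scoring members inside and outside H3K4me2, the 3 of a score of at least 100 farthest from Etv6, the 3 with the most tags and the 3 densest 100-kb windows. No genome of build mm9 was at hand, so the planned motif shares were not run and no sequence is shown. Alternatives changed score limits, overlap rules, the mark's definition and the chromosomes.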

Additional observations from a re-analysis of the deposited data

Results flagged for a closer look

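Peaks outside chromosomes 1 to 19 are listed because no comparison above used them; their counts were tested against nothing. On chromosome X, 122 of 371 Pax6 peaks, or 32.9%, had no Etv6 or EGFP_OK peak, and 14.8% of these (8.98 to 22.3) had the summit in H3K4me2. Their median gap to Etv6 was 45.4 kb, close to that of chromosome 14. On chromosome Y and unplaced sequences, 24 of 42 Pax6 peaks were Pax6-only, with 10 to 25 tags.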

How the results depend on the processing

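Of 55 values under an alternative, 33 stayed within the interval of the reported value (for the number of members, within 1.5 times) and 22 moved. Only the 14 values of the difference in H3K4me2 share could change sign, since counts, shares and distances cannot. None of these differences did, at -40.0 to -24.3 points. With Pax6 scores of at least 100, there were 256 members, of which 10.9% were marked, -40.0 points from the peaks with Etv6; the median gap to Etv6 was 19.5 kb, 33.6% had Etv6 within 10 kb, and unmarked members lay 23.8 kb from H3K4me2. With Etv6 and EGFP_OK scores of at least 100, there were 7395 members, of which 31.2% were marked, -24.3 points; the gap was 33.4 kb, 19.4% had Etv6 within 10 kb, and unmarked members lay 15.9 kb from H3K4me2. With H3K4me2 scores of at least 100, 17.3% were marked, -25.3 points, and unmarked members lay 24.5 kb away. Any overlap with H3K4me2 gave 24.7% and a summit within 1 kb gave 26.5%. At 15 to 19 tags the difference was -26.1 points. Added after the data were seen, the Etv6 list alone as partner gave 24.9% marked and -26.6 points, and a Pax6 fold of at least 10 gave 2136 members with 19.4% marked. The number of members thus depends on the score limits, and the cause of these shifts was not tested beyond the changed lists themselves. The Pax6 library kept 5288154 tags, and members rested on a median of 14. Whether depth limited the list was not tested. No paired analysis was possible because each target has 1 library.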
